A study of Homo sapiens with 33 samples.

Results

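The genes described here are 9 of the best-known members of the NF-kB pathway: the inhibitor genes NFKBIA, NFKBIE and TNFAIP3, the subunit genes NFKB1, NFKB2, RELA and RELB, and the induced genes ICAM1 and TRAF1. They were chosen by name, with earlier results of these data known, and all 9 were found among the 59428 entries of the count table. All 9 passed the filter on low counts in both experiments of the study. NFKBIA lies on chromosome 14 (35401511 to 35404749, minus strand), NFKBIE on chromosome 6 (44258166 to 44265788, minus), TNFAIP3 on chromosome 6 (137867188 to 137883312, plus) and NFKB1 on chromosome 4 (102501329 to 102617302, plus). NFKB2 lies on chromosome 10 (102394110 to 102402529, plus), RELA on chromosome 11 (65653596 to 65663094, minus), RELB on chromosome 19 (45001430 to 45038198, plus), ICAM1 on chromosome 19 (10270835 to 10286615, plus) and TRAF1 on chromosome 9 (120902393 to 120929173, minus), all protein-coding genes on GRCh38. An annotated antisense gene covers the 3' end of ICAM1, where its tags arise, so reads of both cannot be told apart without a stated strand setting.

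NF-kB transcription factors are pairs of Rel-family proteins that IkB proteins hold in the cytoplasm. A signal such as TNF or interleukin-1 activates the IKK kinases, which mark IkB for destruction, and the freed dimers enter the nucleus and switch on genes with kappa-B sites in their promoters or enhancers. Among those genes are the pathway's own inhibitors, above all NFKBIA and TNFAIP3, whose short-lived mRNAs close a negative feedback loop and need continued transcription.

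The libraries are 3' tag libraries: each poly(A) transcript yields reads close to its 3' end. They come from 2 breast cancer lines, written in the labels as MDA-MD-231 (also used for the knockouts) and MDA-MD-468, and the inhibitor-treated cells are labelled wild type. In the inhibitor experiment (22 libraries) each line was treated with SY200/V50, V50 or SY200 for 3, 6 or 12 h, with a DMSO and a parental library at 0 h as its controls. In the knockout experiment (11 libraries) MDA-MD-231 cells carried CDK7/9 KO, CDK9 KO, CDK7 KO, CDK1 KO or an empty vector for 72 or 96 h, beside 1 parental library at 0 h. The series set out to compare blocking of CDK7, which acts within the general transcription factor TFIIH, of CDK9, the kinase that releases paused RNA polymerase II, and of both. The labels do not say which compound acts on which kinase, what the numbers in the compound names measure, or whether a knockout line is 1 clone or a pool. Each line, condition and time has 1 library, and separate cultures are not stated. The p-values thus rest on how effects differ between the lines or between the knockout times. In the inhibitor experiment they also rest on how DMSO and parental libraries differ. A line difference shared by 3, 6 and 12 h of a treatment was treated there as separate differences, so p-values over the mean of the times may be too small. The controls of the inhibitor experiment are all from 0 h, so treatment and time in culture cannot be told apart in comparisons with them.

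Of the 9 members, 7 had a promoter in the RefSeq table of GRCh38.p14, with 13 start sites between them; NFKBIE and RELB had no entry. The 300-base windows, from 250 bases before to 50 after a start, were searched on both strands for the 10-base kappa-B consensus. It was taken as GGGRNNYYCC, where R is A or G, Y is C or T and N is any base. An exact match stood in 5 of the 13 windows (38.5%), against 3956 of 35116 windows in the table (11.3%). The 5 were those of NFKBIA, TNFAIP3, 1 of the 2 starts of NFKB1 and 2 of the 3 starts of NFKB2. No window of RELA, ICAM1 or TRAF1 held one. With 1 mismatch allowed, 12 of the 13 (92.3%) held a match, against 69.4% of all windows. The 250 bases upstream of the start are printed for 2 feedback genes that fell under SY200/V50 (NFKBIA and TNFAIP3), for 1 subunit gene that carries a match and did not pass the test there (NFKB1), and for an induced gene with no exact match (ICAM1). The ICAM1 window held 3 matches with 1 mismatch. Capitals mark the exact matches. They lie 81 to 72 bases before the start of NFKBIA and at 67 to 58 and 55 to 46 before that of TNFAIP3. For NFKB1 the window of its first start is printed, with the match at 49 to 40 before it. A match describes the letters only, and factor binding was not measured.
NFKBIA upstream region (chr14:35404750-35404999, minus strand): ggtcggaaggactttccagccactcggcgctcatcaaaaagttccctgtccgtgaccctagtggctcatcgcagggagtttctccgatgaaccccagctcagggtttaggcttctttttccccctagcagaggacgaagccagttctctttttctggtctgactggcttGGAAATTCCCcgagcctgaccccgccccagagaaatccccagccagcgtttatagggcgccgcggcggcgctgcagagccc
TNFAIP3 upstream region (chr6:137867009-137867258, plus strand): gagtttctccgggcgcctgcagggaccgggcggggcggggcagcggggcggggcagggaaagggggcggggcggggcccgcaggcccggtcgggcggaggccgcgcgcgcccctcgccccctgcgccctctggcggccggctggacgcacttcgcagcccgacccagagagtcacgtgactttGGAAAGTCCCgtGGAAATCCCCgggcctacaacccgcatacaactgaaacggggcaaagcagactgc
NFKB1 upstream region (chr4:102501109-102501358, plus strand): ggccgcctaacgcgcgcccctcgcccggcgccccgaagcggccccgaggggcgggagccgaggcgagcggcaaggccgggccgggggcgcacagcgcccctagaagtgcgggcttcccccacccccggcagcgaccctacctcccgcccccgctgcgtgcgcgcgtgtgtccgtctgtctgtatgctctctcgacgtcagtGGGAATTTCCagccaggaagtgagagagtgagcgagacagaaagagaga
ICAM1 upstream region (chr19:10270870-10271119, plus strand): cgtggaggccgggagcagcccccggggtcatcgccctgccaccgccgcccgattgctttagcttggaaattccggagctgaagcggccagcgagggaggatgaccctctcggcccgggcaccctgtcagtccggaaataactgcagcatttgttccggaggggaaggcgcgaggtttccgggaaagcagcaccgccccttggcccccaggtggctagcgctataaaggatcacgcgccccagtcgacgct

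Each library held 16985219 to 22859779 counted reads. CPM below means counts per 1000000 of the library size scaled by TMM, a method that sets the typical gene as equal between libraries. Log2 changes are given ± SE from edgeR's quasi-likelihood test, with adjusted p by the Benjamini-Hochberg method over all genes tested (18911 in the inhibitor and 16783 in the knockout experiment), and a gene passed where this was under 0.05. The libraries carried the markers of their labelled line. The 10 MDA-MB-231 markers summed to 7730 to 22200 CPM in MDA-MD-231 libraries of the inhibitor experiment, against 951 to 2980 CPM in MDA-MD-468, and the 12 MDA-MB-468 markers summed to 7450 to 13800 CPM in MDA-MD-468, against 987 to 2100 CPM in MDA-MD-231. Mitochondrially encoded mRNAs rose under SY200/V50 (13 of 13, median log2 change 1.38), under V50 (13 of 13, median 0.89) and under SY200 (8 of 13, median 0.42). Scaled to these mRNAs, the median of all genes moved to -1.33 under SY200/V50, -0.92 under V50 and -0.44 under SY200, so every change below is relative to the other mRNAs of the library. In such bulk samples, fewer cells of a type and less RNA per cell cannot be told apart.

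Under SY200/V50 the mRNAs of all 3 inhibitor genes fell, together with RELA, while the other subunit genes, ICAM1 and TRAF1 did not pass the test over the mean of the times. Thus 4 of 9 members were called, all lower, where 48.2% of all genes tested were called in either direction and 24.2% were lower. The share of members called (44.4%) was thus close to that of all genes. The median log2 change was -0.47 over the 9 members and 0.09 over all genes.

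NFKBIE encodes IkB-epsilon, which retains RELA and REL dimers in the cytoplasm, and showed the largest change of the 9. In MDA-MD-231 it had 12.5, 8.43 and 4.47 CPM at 3, 6 and 12 h of SY200/V50, against 36.7 CPM in DMSO and 24.6 CPM in parental cells. In MDA-MD-468 it had 6.17, 4.51 and 1.97 CPM at 3, 6 and 12 h, against 19.4 CPM in DMSO and 17.9 CPM in parental cells. All 6 treated libraries lay below the controls of their line, and the level was lowest at 12 h in both lines. The mean log2 change was -2.14 ± 0.17 (4.42-fold lower, edgeR adjusted p = 1.12e-07). It was -1.45 ± 0.23 at 3 h (adjusted p = 0.00159), -1.96 ± 0.24 at 6 h (adjusted p = 4.93e-05) and -3.01 ± 0.27 at 12 h (adjusted p = 4.43e-07). Between 3 and 12 h of SY200/V50 its mRNA fell further, by 1.56 on the log2 scale (adjusted p = 0.00147; 18.3% of all genes called).

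NFKBIA encodes IkB-alpha, the main fast-acting inhibitor of RELA dimers. It had 6.45, 7.80 and 10.6 CPM in MDA-MD-231 at 3, 6 and 12 h of SY200/V50, against 20.0 CPM in DMSO and 27.5 CPM in parental cells. The MDA-MD-468 libraries had 12.8, 13.5 and 12.6 CPM at 3, 6 and 12 h, against 27.4 CPM in DMSO and 26.3 CPM in parental cells. No treated library overlapped its line's controls, and the MDA-MD-468 values were nearly level over time. The mean log2 change was -1.29 ± 0.22 (2.44-fold lower, edgeR adjusted p = 0.000142). NFKBIA and NFKBIE were the 2 members called at 3 h (7.54% of all genes called), and both were called again at 6 h (34.7%) and 12 h (49.6%), together with RELA. The 12 h against 3 h change of NFKBIA, 0.32 ± 0.35, did not pass (adjusted p = 0.57).

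TNFAIP3 encodes the ubiquitin-editing enzyme that shuts off signalling upstream of IKK. SY200/V50 left 3.25, 4.28 and 5.24 CPM in MDA-MD-231 at 3, 6 and 12 h, against 4.47 CPM in DMSO and 9.88 CPM in parental cells. MDA-MD-468 had 4.39, 5.96 and 4.59 CPM, against 8.95 CPM in DMSO and 14.3 CPM in parental cells. The MDA-MD-468 groups did not overlap, but the 12 h library of MDA-MD-231 lay between its controls. The mean log2 change was -1.0 ± 0.27 (edgeR adjusted p = 0.00597), and no single time passed (adjusted p = 0.056 at 3 h, 0.0902 at 6 h and 0.0732 at 12 h). TNFAIP3 was lower in DMSO than in parental cells of both lines (log2 -0.90 ± 0.37, adjusted p = 0.53), and with DMSO alone as the control its SY200/V50 change was -0.50 and no longer passed.

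RELA encodes the subunit that carries most of the activating function of classical NF-kB. It had 65.1, 44.5 and 34.5 CPM in MDA-MD-231 at 3, 6 and 12 h of SY200/V50, against 68.1 CPM in DMSO and 72.6 CPM in parental cells. The MDA-MD-468 libraries had 75.1, 53.1 and 65.1 CPM, against 114 CPM in DMSO and 129 CPM in parental cells. All 6 treated libraries lay below their line's controls, although the 3 h library of MDA-MD-231 did so by a small margin. The mean log2 change was -0.76 ± 0.13 (1.69-fold lower, edgeR adjusted p = 0.000129). At single times it was -0.40 ± 0.17 at 3 h (adjusted p = 0.18), -0.92 ± 0.18 at 6 h (adjusted p = 0.00109) and -0.96 ± 0.18 at 12 h (adjusted p = 0.000356).

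**Figure D1:**
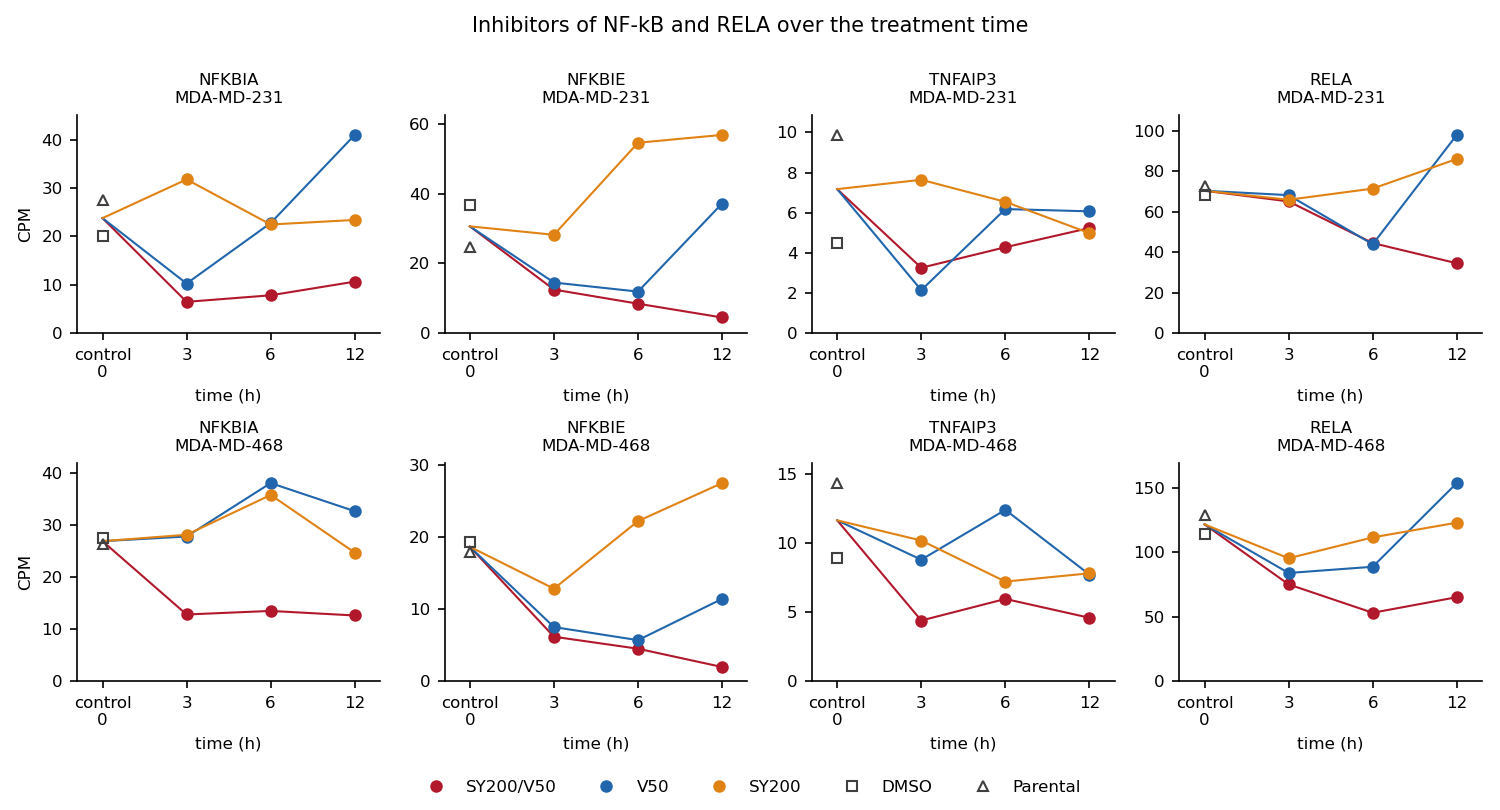
CPM (y axis, from 0) of NFKBIA, NFKBIE, TNFAIP3 and RELA against time in h (x axis, control at the left) in MDA-MD-231 (top) and MDA-MD-468 (bottom), 1 point per library, with lines from the mean of the DMSO and parental libraries. The SY200/V50 points of NFKBIE drop at each later time, to 4.47 CPM in MDA-MD-231 and 1.97 CPM in MDA-MD-468 at 12 h.

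The remaining subunit genes did not pass under SY200/V50. RELB, the subunit that pairs with the NFKB2 product in the alternative pathway, had 11.0, 10.4 and 8.93 CPM in MDA-MD-231, against 13.9 CPM in DMSO and 7.91 CPM in parental cells. In MDA-MD-468 it had 14.4, 14.4 and 14.6 CPM, against 16.1 CPM in DMSO and 24.2 CPM in parental cells. Its treated libraries lay between the controls in MDA-MD-231 and below them in MDA-MD-468, and the mean log2 change was -0.30 ± 0.19 (edgeR adjusted p = 0.19).

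NFKB2, which encodes the precursor that both restrains RELB and is cut into its partner, had 107, 89.7 and 106 CPM in MDA-MD-231 under SY200/V50, against 119 CPM in DMSO and 82.5 CPM in parental cells. MDA-MD-468 libraries held 37.5, 32.0 and 24.1 CPM at 3, 6 and 12 h, against 56.1 CPM in DMSO and 69.3 CPM in parental cells. The groups overlapped in MDA-MD-231 and stood apart in MDA-MD-468, with a mean log2 change of -0.47 ± 0.21 (edgeR adjusted p = 0.0667). NFKB1, the gene of the classical partner of RELA, had 60.2, 55.7 and 51.2 CPM in MDA-MD-231, against 54.5 CPM in DMSO and 51.7 CPM in parental cells. In MDA-MD-468 it had 38.6, 28.2 and 27.6 CPM, against 45.0 CPM in DMSO and 47.0 CPM in parental cells. It lay below both controls in all 3 MDA-MD-468 libraries and in 1 of 3 MDA-MD-231 libraries, and its mean log2 change was -0.26 ± 0.15 (edgeR adjusted p = 0.16).

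ICAM1, a cell-surface adhesion molecule that binds leukocyte integrins and is a standard NF-kB target, lay on opposite sides of the controls in the 2 lines on this scale. Under SY200/V50 it had 37.6, 45.5 and 66.5 CPM at 3, 6 and 12 h in MDA-MD-231, against 25.2 CPM in DMSO and 30.8 CPM in parental cells. MDA-MD-468 had 39.7, 36.0 and 25.7 CPM, against 39.9 CPM in DMSO and 60.03 CPM in parental cells. All 3 treated libraries lay above both controls in MDA-MD-231 and below both in MDA-MD-468. The mean over both lines was 0.09 ± 0.27 (edgeR adjusted p = 0.80). The difference of the effects, MDA-MD-468 minus MDA-MD-231, was -1.37 ± 0.44 on the log2 scale and did not pass (adjusted p = 0.17). Scaled to the mitochondrially encoded mRNAs, ICAM1 was below the control mean in both lines, by log2 -0.29, -0.70 and -0.56 in MDA-MD-231 and -1.24, -1.88 and -3.14 in MDA-MD-468 at 3, 6 and 12 h, and the mean over both was -1.36.

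TRAF1, an adaptor of TNF receptors that NF-kB induces, had 5.69, 3.27 and 2.31 CPM in MDA-MD-231 under SY200/V50, against 5.71 CPM in DMSO and 5.82 CPM in parental cells. Levels in MDA-MD-468 were 1.09, 1.02 and 0.853 CPM, against 0.505 CPM in DMSO and 1.27 CPM in parental cells. The 3 treated MDA-MD-231 libraries lay below their controls, the first of them barely, and those of MDA-MD-468 lay between theirs. The mean log2 change was -0.36 ± 0.27 (edgeR adjusted p = 0.29), and the lowest TRAF1 count in any library was 8 reads, so small changes in MDA-MD-468 were not detectable at this depth.

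**Figure D2:**
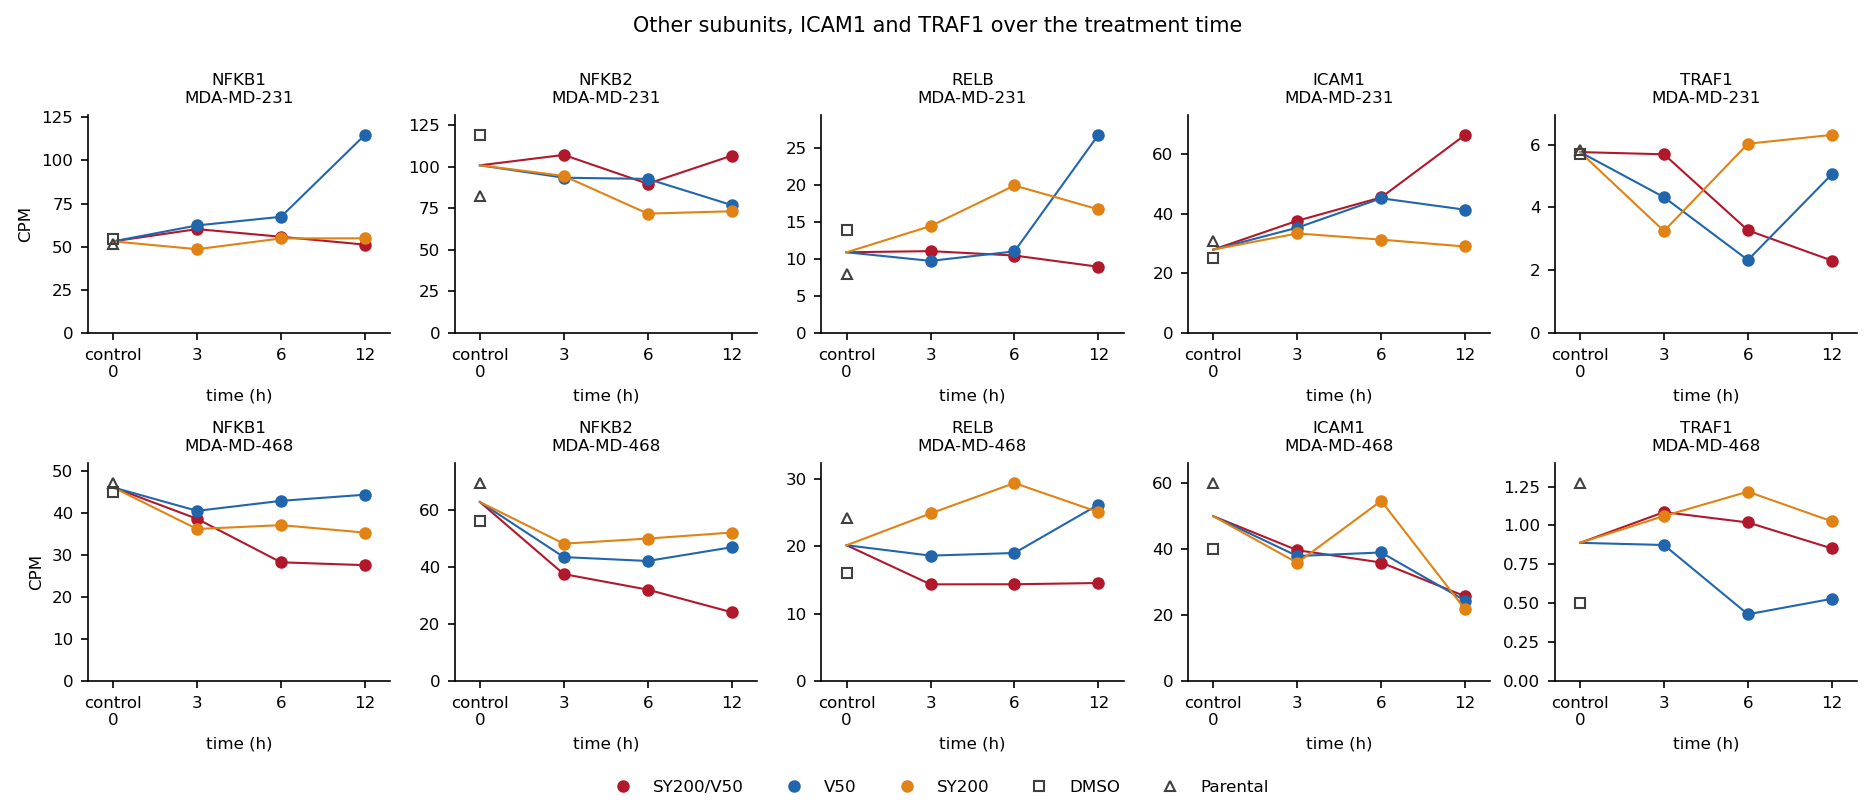
CPM (y axis, from 0) of NFKB1, NFKB2, RELB, ICAM1 and TRAF1 against time in h (x axis, control at the left) in MDA-MD-231 (top) and MDA-MD-468 (bottom), 1 point per library, with lines from the mean of the DMSO and parental libraries. The SY200/V50 points of ICAM1 climb to 66.5 CPM at 12 h in MDA-MD-231 and drop to 25.7 CPM in MDA-MD-468, while on the mitochondrial scale it was lower than control in both lines.

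V50 alone changed 1 member over the mean of the times, NFKBIE (log2 -0.98 ± 0.16, 1.97-fold lower, edgeR adjusted p = 0.000763), where 22.3% of all genes were called. Its effect on these genes depended on time. In MDA-MD-231 NFKBIE had 14.5, 11.9 and 37.2 CPM at 3, 6 and 12 h of V50, against 36.7 CPM in DMSO and 24.6 CPM in parental cells. In MDA-MD-468 it had 7.51, 5.69 and 11.4 CPM, against 19.4 CPM in DMSO and 17.9 CPM in parental cells. The early libraries lay below the controls in both lines, and the 12 h library lay below them in MDA-MD-468 and just above them in MDA-MD-231. NFKBIE was lower at 3 h (-1.20 ± 0.23, adjusted p = 0.00752; 4.1% of all genes called) and at 6 h (-1.55 ± 0.23, adjusted p = 0.000485; 23.4% called), but did not pass at 12 h (-0.18 ± 0.22, adjusted p = 0.61; 15.2% called). At 6 h RELA (-0.56 ± 0.18, adjusted p = 0.0317) and TRAF1 (-1.20 ± 0.40, adjusted p = 0.0386) were lower as well, and at 12 h RELB was higher (0.86 ± 0.24, adjusted p = 0.0242), though at -0.12 on the mitochondrial scale.

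Between 3 and 12 h of V50, 4 of 9 members rose, where 12.8% of all genes were called and 7.97% rose. They were NFKBIE (log2 1.02 ± 0.25, edgeR adjusted p = 0.0148), RELA (0.69 ± 0.20, adjusted p = 0.0311), RELB (1.0 ± 0.29, adjusted p = 0.0322) and NFKBIA (1.07 ± 0.34, adjusted p = 0.0489). On the mitochondrial scale the changes kept their sign (0.81, 0.48, 0.80 and 0.89) and none passed. RELB had 9.72, 11.0 and 26.7 CPM at 3, 6 and 12 h of V50 in MDA-MD-231, against 13.9 CPM in DMSO and 7.91 CPM in parental cells. Levels in MDA-MD-468 were 18.6, 19.0 and 26.2 CPM, against 16.1 CPM in DMSO and 24.2 CPM in parental cells. The 12 h library was the highest of its line's V50 and control libraries in both lines. NFKBIA had 10.2, 22.7 and 41.0 CPM in MDA-MD-231 at 3, 6 and 12 h of V50, and 27.7, 38.0 and 32.6 CPM in MDA-MD-468. Its climb was thus carried mainly by MDA-MD-231, and the call held without the MDA-MD-231 parental, MDA-MD-468 V50 3 h or MDA-MD-468 V50 12 h library but in none of the other 19 fits that left out 1 library. The change was 0.60 without MDA-MD-231 V50 3 h and 0.62 without MDA-MD-231 V50 12 h, against 1.72 without MDA-MD-468 V50 3 h and 1.47 without MDA-MD-468 V50 12 h. RELA had 68.2, 43.9 and 97.9 CPM in MDA-MD-231 and 83.9, 88.7 and 154 CPM in MDA-MD-468, with 12 h the highest in both. The calls of NFKBIE, RELA and RELB were lost without the MDA-MD-231 V50 3 h (0.96, 0.86 and 0.84), MDA-MD-231 V50 12 h (0.63, 0.72 and 0.60) or MDA-MD-468 V50 3 h library (1.09, 0.54 and 1.19), and that of RELA also without MDA-MD-468 V50 12 h (0.68). NFKB1 had 62.3, 67.3 and 115 CPM in MDA-MD-231 and 40.4, 42.8 and 44.3 CPM in MDA-MD-468, and its change between 3 and 12 h did not pass (0.55 ± 0.23, adjusted p = 0.13).

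Among the calls at single times, that of RELB at 12 h of V50 was lost without the MDA-MD-231 V50 12 h library (0.45), the MDA-MD-231 parental library (0.69) or the MDA-MD-468 DMSO library (0.80). RELA at 6 h of V50 was lost without MDA-MD-231 V50 6 h (-0.35), MDA-MD-468 parental (-0.49) or MDA-MD-468 DMSO (-0.56). TRAF1 at 6 h was lost without either V50 6 h library, either MDA-MD-231 control or the MDA-MD-468 parental library, at log2 changes of -1.12 to -1.28. NFKBIE at 3 h of V50 was lost without either V50 3 h library (-1.15 without that of MDA-MD-231 and -1.29 without that of MDA-MD-468).

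SY200 alone called none of the 9 members over the mean of the times by edgeR, where 1.98% of all genes passed. DESeq2 called none either. An unadjusted p under 0.05 was reached by 1 member (RELB) and by 3195 of the 18911 genes tested. At single times edgeR called no member at 3, 6 or 12 h (0.423%, 0.264% and 2.43% of all genes called). DESeq2 called 0, 0 and 1. Unadjusted p was under 0.05 for 0, 2 (NFKBIE and RELB) and 1 (NFKBIE) members, and for 2322, 2310 and 3372 of all genes. RELB was the member with the largest change over the mean of the times (log2 0.50 ± 0.19, edgeR adjusted p = 0.18). It had 14.4, 19.9 and 16.7 CPM at 3, 6 and 12 h in MDA-MD-231, against 13.9 CPM in DMSO and 7.91 CPM in parental cells, and 24.9, 29.4 and 25.1 CPM in MDA-MD-468, against 16.1 CPM in DMSO and 24.2 CPM in parental cells. All 6 SY200 libraries lay above both controls of their line. NFKBIE had 28.2, 54.7 and 56.9 CPM at 3, 6 and 12 h of SY200 in MDA-MD-231 and 12.8, 22.2 and 27.5 CPM in MDA-MD-468. Its level rose between 3 and 12 h (1.05 ± 0.25, adjusted p = 0.0415; 1.95% of all genes called), and was at 12 h above both controls of its line in each line. The call was lost in 12 of the 22 fits that left out 1 library, those without a 3 h library of any treatment, a V50 or SY200/V50 library of 6 h, or an SY200 library of 12 h, with log2 changes of 1.02 to 1.08, and on the mitochondrial scale (1.18, adjusted p = 0.0574).

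**Figure D3:**
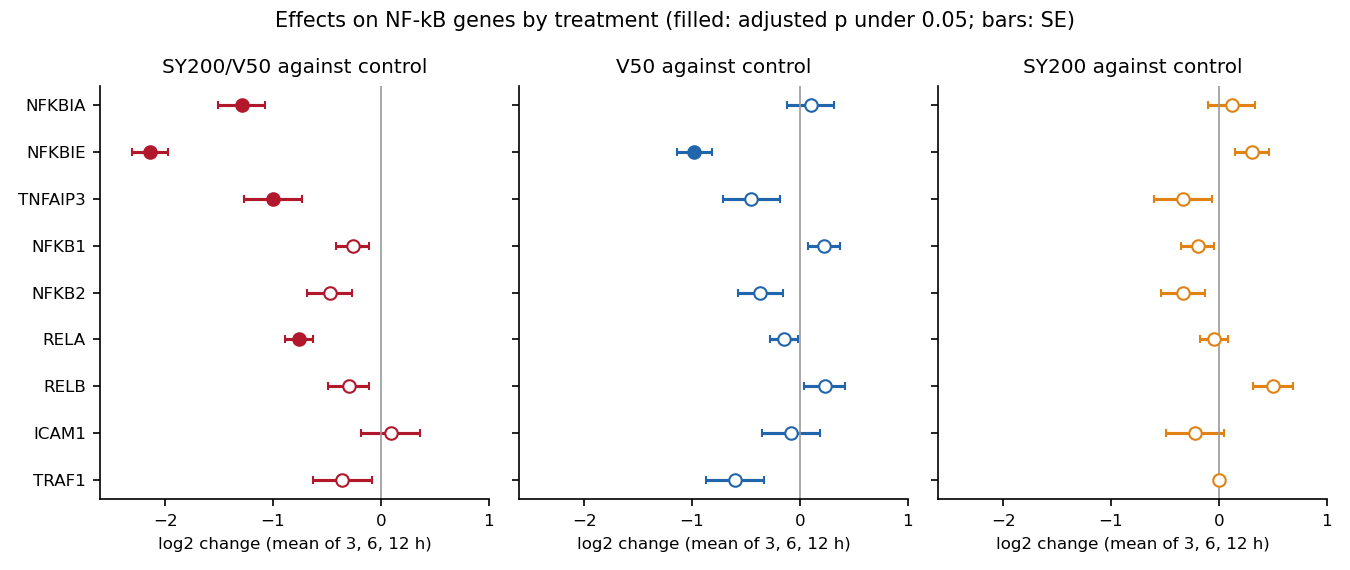
Log2 change against control over the mean of 3, 6 and 12 h (x axis; bars are SE; filled points passed the test) for the 9 members (y axis) under SY200/V50 (left), V50 (middle) and SY200 (right). Filled points are NFKBIE at -2.14, NFKBIA at -1.29, TNFAIP3 at -1.0 and RELA at -0.76 under SY200/V50, NFKBIE at -0.98 under V50, and none under SY200; the SE of TRAF1 under SY200 is not drawn, since its change was 0.

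Set against the single agents, SY200/V50 held 5 members lower than V50 over the mean of the times, where 19.9% of all genes were called and 12.4% were lower. NFKBIA was lower by 1.39 on the log2 scale (-1.39 ± 0.20, edgeR adjusted p = 0.000358), NFKBIE by 1.17 (-1.17 ± 0.15, adjusted p = 0.000177) and RELA by 0.61 (-0.61 ± 0.12, adjusted p = 0.00195). NFKB1 (-0.48 ± 0.14, adjusted p = 0.0194) and RELB (-0.53 ± 0.17, adjusted p = 0.0351) were lower too. The same 5 members were lower at 12 h (37.6% of all genes called), where NFKBIE differed by -2.83 ± 0.28 and RELA by -1.36 ± 0.20. At 3 and 6 h edgeR called no member (0.00529% and 0.0106% of all genes called). An unadjusted p under 0.05 was reached by 1 member, NFKBIA, at each time, and by 164 and 1085 of the 18911 genes. DESeq2 called 0 members at 3 h and 1 at 6 h. The NFKB1 mean-of-times call was lost without MDA-MD-231 V50 12 h (-0.34), MDA-MD-468 V50 6 h (-0.49), MDA-MD-468 SY200/V50 3 h (-0.49) or MDA-MD-468 SY200/V50 6 h (-0.43). The RELB call was lost without MDA-MD-231 V50 12 h (-0.40), any MDA-MD-231 SY200/V50 library, the 3 h or 6 h library of V50 or of SY200/V50 in MDA-MD-468, and at 12 h the calls of NFKB1 (-0.53) and RELB (-0.86) were lost without MDA-MD-231 V50 12 h.

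Against SY200, the combination held 5 members lower over the mean of the times (46% of all genes called, 22.2% lower). They were NFKBIE (-2.45 ± 0.15, edgeR adjusted p = 1.63e-07), NFKBIA (-1.41 ± 0.20, adjusted p = 4.05e-05), RELB (-0.80 ± 0.17, adjusted p = 0.001), RELA (-0.71 ± 0.12, adjusted p = 0.000116) and TNFAIP3 (-0.67 ± 0.25, adjusted p = 0.0375). NFKBIA, NFKBIE, RELA and RELB were lower both at 6 h (18.4% of all genes called) and at 12 h (45.3%), and the NFKBIE difference reached -3.73 ± 0.29 at 12 h. RELB was lost without any of the 4 SY200 and SY200/V50 libraries of the time, at 6 h (-0.89 to -1.08) and at 12 h (-0.81 to -1.04). NFKBIA was lost at 6 h without MDA-MD-231 SY200/V50 6 h (-1.28), and at 12 h without MDA-MD-231 SY200 12 h (-0.86) or either SY200/V50 12 h library (-1.17 without that of MDA-MD-231 and -1.13 without that of MDA-MD-468). RELA was lost at 6 h without MDA-MD-468 SY200/V50 6 h (-0.69). At 3 h edgeR called no member (0.1% of all genes called) and DESeq2 called 2. Unadjusted p was under 0.05 for 3 members (NFKBIA, NFKBIE and TNFAIP3) and for 818 of the 18911 genes. The TNFAIP3 call was lost in 10 of the 22 fits that left out 1 library, each time an SY200 or SY200/V50 library, with values of -0.58 to -0.70.

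The combination was also compared with the sum of the single effects on the log2 scale. For 3 members it lay below that sum, where 5.04% of all genes differed and 3.68% lay below. Each effect was taken against the 0 h controls. A shift shared by all treated libraries, such as with time in culture, would count more often in the sum than in the combined effect. Such a shift could not be told apart from a departure from the sum. NFKBIA differed by -1.51 ± 0.30 (edgeR adjusted p = 0.0117), with single effects of 0.12 for SY200 and 0.10 for V50 and a combined effect of -1.29. NFKBIE differed by -1.47 ± 0.22 (adjusted p = 0.00423), with single effects of 0.31 and -0.98 and a combined effect of -2.14. RELB differed by -1.03 ± 0.25 (adjusted p = 0.0284), with single effects of 0.50 and 0.23 and a combined effect of -0.30. RELA did not pass (-0.57 ± 0.17, adjusted p = 0.0637), and TNFAIP3 differed by -0.22 ± 0.37 (adjusted p = 0.76). The RELB call was lost in 13 of 22 fits that left out 1 library (-0.87 to -1.06), those without any MDA-MD-231 SY200 library, the MDA-MD-231 parental library or the MDA-MD-468 DMSO library among them. With DMSO alone as the control, the NFKBIE call held and those of NFKBIA (-1.62) and RELB (-1.02) were lost.

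The lines differed in their untreated levels of most of these genes, as of most genes tested. In the controls, MDA-MD-468 against MDA-MD-231, 6 members were called (66.7%, where 53.8% of all genes were called). The share of members was thus near that of all genes. RELA had 114 and 129 CPM in MDA-MD-468, against 68.1 and 72.6 CPM in MDA-MD-231 (log2 0.79 ± 0.20, edgeR adjusted p = 0.00346). TRAF1 had 0.505 and 1.27 CPM in MDA-MD-468, against 5.71 and 5.82 CPM in MDA-MD-231 (-2.68 ± 0.42, adjusted p = 7.5e-05). The lines did not overlap for either gene. NFKBIE (-0.72 ± 0.24, adjusted p = 0.0198) and NFKB2 (-0.68 ± 0.22, adjusted p = 0.0179) were lower in MDA-MD-468, and RELB (0.89 ± 0.30, adjusted p = 0.0208) and ICAM1 (0.84 ± 0.34, adjusted p = 0.0491) were higher. NFKBIE was lost without either MDA-MD-468 control (-0.74 and -0.64) or the MDA-MD-231 DMSO library (-0.36), and NFKB2 without either DMSO library (-0.36 without that of MDA-MD-231 and -0.51 without that of MDA-MD-468). RELB was lost without either parental library (0.57 without that of MDA-MD-231 and 0.59 without that of MDA-MD-468) or either SY200/V50 12 h library (0.79 in both fits), and ICAM1 in 10 of the 22 fits that left out 1 library (0.54 to 1.01). On the mitochondrial scale the differences of RELA, RELB and ICAM1 were 0.07, 0.18 and 0.11 and none of the 3 passed. With DMSO alone as the control they were 0.77, 0.24 and 0.69 and none passed, and ICAM1 was also lost with DESeq2 (0.81), with its size factors (0.81) and without the count filter (0.87), the last of which also ended the call of NFKBIE (-0.69).

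No difference between the lines in a treatment effect passed for any member, and edgeR called 0 of 18911 genes in each of these 3 tests; DESeq2 called 0 members in each. At an unadjusted p under 0.05 stood 3 members for SY200/V50 (NFKB1, NFKB2 and ICAM1), 2 for V50 (NFKB1 and ICAM1) and 0 for SY200. Of the 18911 genes, 3009, 1873 and 1048 stood there in turn. For NFKB2 under SY200/V50 the difference was -1.03 ± 0.29 (adjusted p = 0.14) and for NFKB1 -0.63 ± 0.25 (adjusted p = 0.25). DMSO against parental called no member by edgeR (0.037% of all genes called) or DESeq2. Unadjusted p was under 0.05 for 1 member, TNFAIP3, and for 1540 of the 18911 genes.

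In the knockout experiment the targeted genes were first set beside the labels. CDK7 had 15.6 and 17.1 CPM at 72 and 96 h in CDK7/9 KO and 15.3 and 13.7 CPM in CDK7 KO, against 49.0 and 66.6 CPM with the empty vector. CDK9 had 34.3 and 36.6 CPM in CDK7/9 KO and 33.2 and 36.4 CPM in CDK9 KO, against 70.5 and 62.1 CPM with the empty vector. CDK1 had 81.6 and 84.1 CPM in CDK1 KO, against 178 and 283 CPM with the empty vector, but the parental library had 84.2 CPM, level with the knockout. CDK7 and CDK9 had 56.3 and 63.9 CPM in that parental library, above the libraries labelled with their knockouts. The CDK1 KO libraries were thus low in CDK1 against the empty vector and the other knockouts (141 to 182 CPM) but not against parental cells, and a 3' tag may lie outside the edited part, so these levels do not measure the protein.

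In CDK7/9 KO, 2 of 9 members passed, NFKBIE and TNFAIP3, both lower, where 11.3% of all genes were called and 5.62% were lower. NFKBIE had 23.1 and 26.8 CPM at 72 and 96 h in CDK7/9 KO, against 34.0 and 44.5 CPM with the empty vector. TNFAIP3 had 12.5 and 16.3 CPM in CDK7/9 KO, against 20.9 and 26.9 CPM with the empty vector. Neither gene's groups overlapped. The log2 changes were -0.65 ± 0.12 for NFKBIE (edgeR adjusted p = 0.0113) and -0.72 ± 0.16 for TNFAIP3 (adjusted p = 0.0201), and both calls were lost without either CDK7/9 KO library (NFKBIE -0.66 and -0.66, TNFAIP3 -0.64 and -0.85, without the 72 h and 96 h library in turn). NFKBIA had 37.4 and 33.01 CPM in CDK7/9 KO, against 33.2 and 37.0 CPM with the empty vector, and its log2 change was 0.01 ± 0.12 (adjusted p = 0.96). RELA was at 96.2 and 114 CPM in CDK7/9 KO, against 90.3 and 87.6 CPM with the empty vector (0.24 ± 0.10, adjusted p = 0.12). RELB had 13.5 and 14.7 CPM, against 17.2 and 21.2 CPM with the empty vector (-0.44 ± 0.14, adjusted p = 0.0642), and TRAF1 had 19.8 and 18.4 CPM, against 22.2 and 25.3 CPM with the empty vector (-0.30 ± 0.14, adjusted p = 0.15). NFKB1, NFKB2 and ICAM1 had log2 changes of 0.00, 0.07 and 0.13 and did not pass.

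The single knockouts of CDK9 and CDK7 called no member by edgeR. In CDK9 KO (8.16% of all genes called) 2 members, NFKBIE and RELA, had an unadjusted p under 0.05. So had 4717 of the 16783 genes tested. DESeq2 called 0 members. NFKBIE had 30.1 and 28.98 CPM in CDK9 KO, against 34.0 and 44.5 CPM with the empty vector, without overlap (-0.39 ± 0.12, edgeR adjusted p = 0.0632). TNFAIP3 had 20.1 and 21.5 CPM in CDK9 KO, against 20.9 and 26.9 CPM with the empty vector, with overlap (-0.19 ± 0.15, adjusted p = 0.45). In CDK7 KO (0.0238% of all genes called) 4 members, NFKBIE, TNFAIP3, RELB and TRAF1, had an unadjusted p under 0.05. So had 2887 of the 16783 genes tested. DESeq2 called 2 members. NFKBIE had 23.7 and 28.3 CPM in CDK7 KO and TNFAIP3 16.1 and 13.6 CPM, all below the empty vector libraries, with log2 changes of -0.59 ± 0.12 (edgeR adjusted p = 0.15) and -0.67 ± 0.16 (adjusted p = 0.16). CDK7/9 KO against CDK9 KO (0.00596% of all genes called) and against CDK7 KO (4.3%) called no member by edgeR or DESeq2. In turn, 3 members (TNFAIP3, RELB and TRAF1) and 0 members had an unadjusted p under 0.05. Of the 16783 genes tested, 442 and 3396 had one.

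CDK1 KO, which targets the main mitotic kinase, had positive log2 changes for all 9 members and 3 of 9 passed, where 0.352% of all genes were called and 0.322% were higher. ICAM1 had 120 and 129 CPM at 72 and 96 h in CDK1 KO, against 70.3 and 58.2 CPM with the empty vector. TNFAIP3 had 40.3 and 52.4 CPM, against 20.9 and 26.9 CPM with the empty vector, and TRAF1 had 38.7 and 53.4 CPM, against 22.2 and 25.3 CPM. Both CDK1 KO libraries lay above both empty vector libraries for each of the 9 members. The share of all genes so placed was not counted, so this separation cannot be set against that of other genes. The log2 changes were 0.97 ± 0.11 for ICAM1 (edgeR adjusted p = 0.0118), 0.97 ± 0.15 for TNFAIP3 (adjusted p = 0.0262) and 0.96 ± 0.13 for TRAF1 (adjusted p = 0.0173). RELB had 24.1 and 31.4 CPM in CDK1 KO, against 17.2 and 21.2 CPM with the empty vector (0.54 ± 0.13, adjusted p = 0.0989). The log2 changes of the others, 0.16 for RELA to 0.37 for NFKBIA, did not pass. The calls of all 3 were lost without either CDK1 KO library or either CDK7 KO library, that of TRAF1 also without CDK9 KO 72 h, and that of TNFAIP3 without any CDK9 KO or CDK7/9 KO library; the values without 1 library were 0.81 to 1.11 for ICAM1, 0.83 to 1.07 for TNFAIP3 and 0.75 to 1.12 for TRAF1. Scaled to the mitochondrially encoded mRNAs, whose median log2 change was 0.42 in CDK1 KO with 0 of 13 called, the 3 changes were 0.63, 0.60 and 0.60 and none passed.

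**Figure D4:**
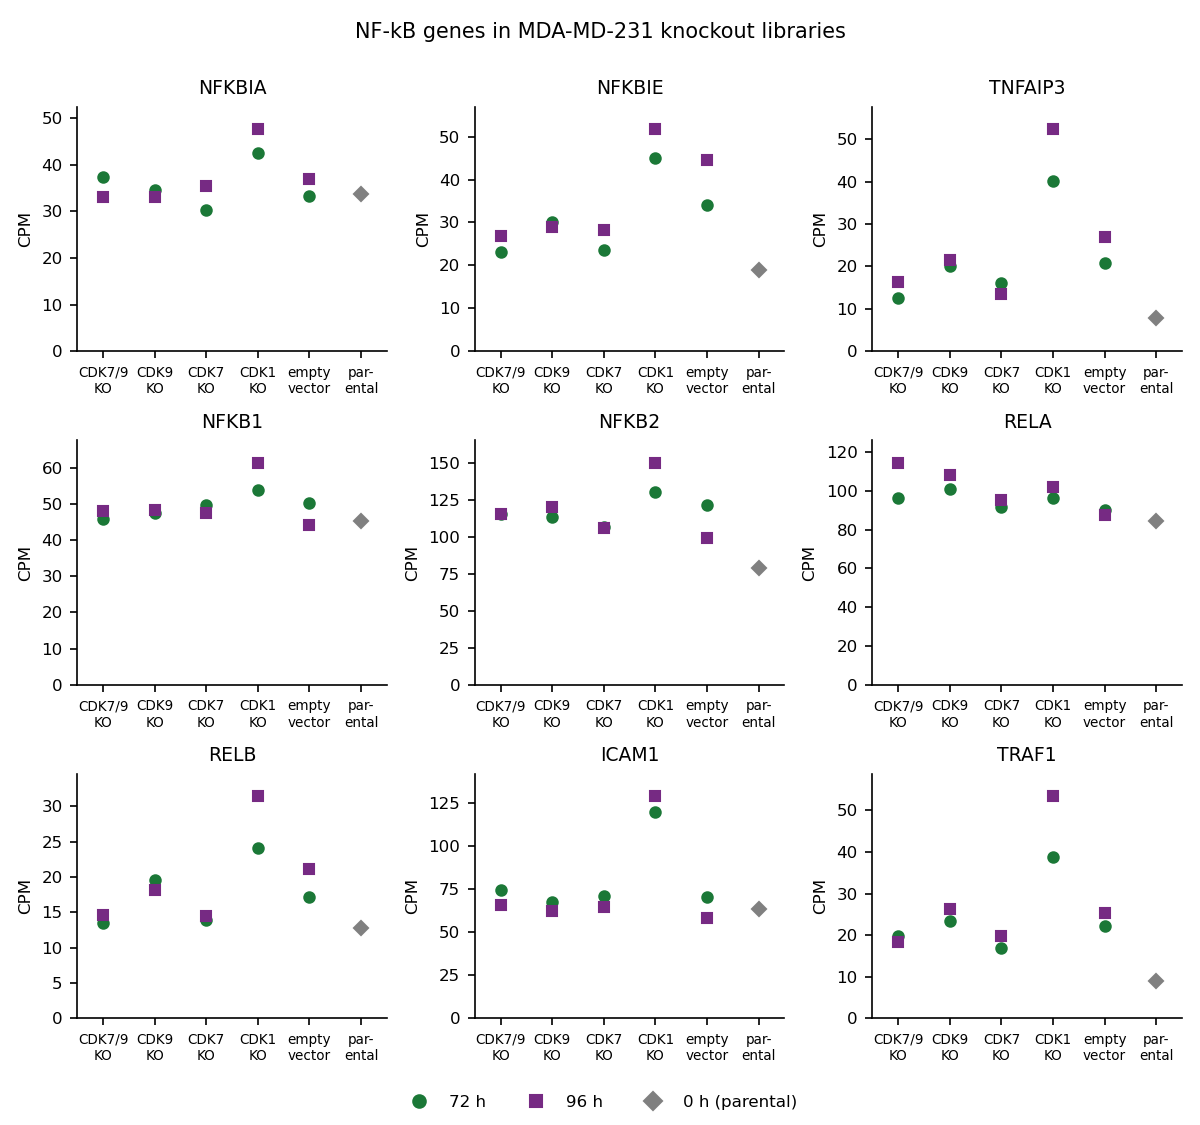
CPM (y axis, from 0) of the 9 members in each knockout library of MDA-MD-231 (x axis, knockouts to the left of the empty vector and the parental library), with circles for 72 h, squares for 96 h and diamonds for the parental library at 0 h. CDK1 KO points lie above the empty vector points in every panel, and the CDK7/9 KO points of NFKBIE and TNFAIP3 lie below them.

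The parental library of the knockout experiment had lower levels of several members than the empty vector libraries, with 1 library and no test. TNFAIP3 had 20.9 and 26.9 CPM with the empty vector, against 7.82 CPM in parental cells, and TRAF1 had 22.2 and 25.3 CPM, against 8.87 CPM. NFKBIE had 34.0 and 44.5 CPM, against 18.8 CPM in parental cells. NFKBIA, at 33.2 and 37.0 CPM with the empty vector against 33.6 CPM in parental cells, and RELA, at 90.3 and 87.6 CPM against 84.5 CPM, were close to level. Vector, selection and time in culture cannot be told apart in this pair of groups.

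The rest of the pathway was described by lists of its other components. Under SY200/V50 (48.2% of all genes called, 24.2% lower), receptors and adaptors had 12 of 21 genes lower and 0 higher (median log2 change -0.81, against 0.09 over all genes). FADD, a death-domain adaptor, changed by -2.97 ± 0.29 (edgeR adjusted p = 9.27e-07) and TRAF2, the adaptor of TNF receptors, by -1.46 ± 0.18 (adjusted p = 6.41e-06). Of the IKK and other kinase genes 9 of 16 were lower and 1 higher (median -0.41); RIPK2, a kinase of the NOD receptors, changed by -0.95 ± 0.17 (adjusted p = 0.000181) and IRAK1, a kinase of interleukin-1 and Toll-like receptors, by 0.98 ± 0.12 (adjusted p = 8.17e-06). Of the other Rel and IkB genes 3 of 5 were lower and 1 higher (median -1.27); BCL3, a nuclear IkB protein, changed by -1.92 ± 0.34 (adjusted p = 0.000229) and NFKBIB, the gene of IkB-beta, by 0.36 ± 0.11 (adjusted p = 0.0134). Among 15 negative regulators tested of 16, 6 were lower and 2 higher (median -0.32), with NKIRAS1, a Ras-like binder of IkB, at -1.44 ± 0.17 (adjusted p = 4.39e-06) and the linear-ubiquitin protease OTULIN at -1.37 ± 0.17 (adjusted p = 6.05e-06). Among 25 induced targets tested of 30, 8 were lower and 1 higher (median -0.45), with the transcription factor gene IRF1 at -2.57 ± 0.30 (adjusted p = 4.68e-06) and TNFAIP8 at -1.63 ± 0.17 (adjusted p = 1.5e-06). Every gene of the 5 lists counted as higher here was lower on the mitochondrial scale, IRAK1 at -0.45 and NFKBIB at -1.07 among them. On that scale 23 of 25 induced targets and all tested genes of the other 4 lists were lower, where 82.8% of all genes were lower.

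V50 alone (22.3% of all genes called, 11.9% lower) lowered 8 of 21 receptors and adaptors (median -0.37, against 0.00 over all genes), 3 of 5 other Rel and IkB genes (median -1.0), 3 of 15 negative regulators (median -0.14) and 3 of 25 induced targets (median -0.33), and raised none of these. One kinase gene of 16, IRAK1, was higher (0.51 ± 0.12, edgeR adjusted p = 0.00654; -0.41 on the mitochondrial scale) and none was lower (median -0.18). On the mitochondrial scale 21 of 21, 5 of 5, 15 of 15, 19 of 25 and 16 of 16 genes of these lists, in the order given, were lower, where 73.8% of all genes were lower. The genes with the smallest adjusted p were MALT1, a protease of the CARD-BCL10 complex (-0.94 ± 0.21), FADD (-1.16 ± 0.28), BCL3 (-1.29 ± 0.33), NFKBIZ (-1.0 ± 0.34), OTULIN (-0.95 ± 0.16), NKIRAS1 (-0.68 ± 0.17), the apoptosis inhibitor BIRC3 (-0.87 ± 0.21) and IRF1 (-0.97 ± 0.29). SY200 alone called 2 genes of the 5 lists, the induced targets SDC4, a heparan sulfate proteoglycan (0.91 ± 0.20, adjusted p = 0.032), and BIRC3 (-0.89 ± 0.21, adjusted p = 0.0353), where 1.98% of all genes were called. On the mitochondrial scale SDC4 was at 0.48 and did not pass (adjusted p = 0.103). There 12 of 21 receptors and adaptors, 6 of 16 kinase genes, 2 of 5 other Rel and IkB genes, 5 of 15 negative regulators and 5 of 25 induced targets were lower and none was higher, where 27% of all genes were lower.

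In the knockouts the induced targets were the list with the most calls. CDK7/9 KO lowered 11 of the 23 tested and raised 0 (median log2 change -0.61, against -0.01 over all genes, of which 11.3% were called and 5.62% were lower). CDK9 KO lowered 6 and raised 0 (median -0.43, against 0.00 over all genes, of which 8.16% were called and 3.82% were lower). PTX3, a secreted pattern-recognition protein, changed by -0.88 ± 0.12 in CDK7/9 KO (edgeR adjusted p = 0.00418) and by -0.93 ± 0.12 in CDK9 KO (adjusted p = 0.0048). PTGES, the prostaglandin E synthase, changed by -0.68 ± 0.11 (adjusted p = 0.00895) in CDK7/9 KO and by -0.97 ± 0.12 in CDK9 KO (adjusted p = 0.00409). COMMD1, a negative regulator of RELA, changed by -1.04 ± 0.17 in CDK7/9 KO (adjusted p = 0.00895) and by -0.72 ± 0.17 in CDK9 KO (adjusted p = 0.0338). TNIP1, a partner of the TNFAIP3 protein, changed by -0.40 ± 0.09 in CDK7/9 KO (adjusted p = 0.0248), and TNIP2 by -0.50 ± 0.10 in CDK9 KO (adjusted p = 0.0195), where TRAF3 was higher (0.41 ± 0.11, adjusted p = 0.0427; -0.40 on the mitochondrial scale). No other Rel or IkB gene and no kinase gene of the lists passed in either; the negative regulators had 3 of 15 lower and 1 higher in CDK7/9 KO and 2 lower and 1 higher in CDK9 KO, and the receptors and adaptors 2 of 21 lower in CDK7/9 KO and 1 lower and 1 higher in CDK9 KO. In CDK1 KO 5 of the 23 induced targets were higher and 0 lower (median 0.49, against 0.03 over all genes, of which 0.352% were called and 0.322% were higher). They were the cytokine genes IL6 (1.34 ± 0.18, adjusted p = 0.0161), CXCL1 (1.08 ± 0.17, adjusted p = 0.0256), CXCL2 (1.12 ± 0.17, adjusted p = 0.027), CXCL3 (1.14 ± 0.19, adjusted p = 0.0346) and IL1B (1.07 ± 0.18, adjusted p = 0.0338), named after their values were seen; on the mitochondrial scale they were at 0.71 to 0.95 and none passed. These comparisons share the empty vector libraries. Mitochondrially encoded mRNAs were higher in CDK7/9 KO and CDK9 KO than with the empty vector (10 of 13 in each, median 0.86 and 0.92). Their share of counted reads at 72 and 96 h was 5.38% and 5.41% in CDK7/9 KO and 5.04% and 5.98% in CDK9 KO. It was 3.77% and 2.6% with the empty vector. The parental library, at 5.05%, was nearer to these knockouts than to the empty vector. Scaled to these mRNAs, the induced targets were 22 of 23 lower in CDK7/9 KO (median -1.46, against -0.81 over all genes, of which 65.9% were lower) and 21 of 23 lower in CDK9 KO (median -1.26, against -0.82, with 67.6% lower). On that scale the other 4 lists were mostly lower too, with 15 of 16 kinase genes lower in CDK7/9 KO and 16 of 16 in CDK9 KO.

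The genes closest to NFKBIA, TNFAIP3 and RELB over the 18 treated libraries were found by the mean absolute difference in log2 fold against the own line's controls. For NFKBIA they included ZNF274 (0.354) and ZNF3 (0.363), where the median over 9789 genes was 0.813. For TNFAIP3 they were SFT2D2 (0.387), SERPINB8 (0.388) and KPNA2 (0.389), against a median of 0.712. For RELB they were AAR2 (0.197), SLU7 and C19orf25 (0.224 each), against a median of 0.622. Only genes with a mean of at least 10 CPM over the inhibitor libraries could be matches. TNFAIP3 (mean 6.96 CPM) and TRAF1 (2.73 CPM) were therefore not candidates. None of the other members was among the closest genes.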

How the data were processed

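The authors deposited raw read counts (whole numbers, not normalized), 1 row per gene symbol and 1 column per library. Libraries were made with a QuantSeq 3' mRNA kit (FWD), per the labels' protocols, and per the submitters' processing notes FastQC, STAR 2.7.10a and GRCh38 were used. How genes were counted (tool, annotation, strand, molecular identifiers) is not given in the sources used here, and reads without identifiers are not independent molecules. Library totals were 16985219 to 22859779, so the tests cover counting error and the spread between lines or times.

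Counts were fitted with edgeR 4.0.16 in R 4.3.3: filterByExpr (minimum count 10, minimum total 15), TMM factors and the quasi-likelihood F test, with Benjamini-Hochberg adjusted p under 0.05 as the threshold. The inhibitor model held the line as a block and 10 conditions, with DMSO and parental libraries together as control (11 residual degrees of freedom), although they differed beyond counting error (chi-square over its degrees of freedom 40.1 for MDA-MD-231, 24.8 for MDA-MD-468). Lines were compared with treatment terms per line (8), and DMSO with parental by separate terms (10). The knockout fit held genotype and time over 10 libraries (4), without the parental library, which has no matching time. The SE of a log2 change is the one its F statistic implies. Displayed CPM uses TMM factors over all libraries of an experiment. The tests were also run on simulated counts with few changed genes, balanced up and down, the same spread for every gene and no line difference. That run cannot speak to the tests or the scaling where a large share of genes changed. Positions come from GENCODE release 29 on GRCh38 and promoters from RefSeq.

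The members, the pathway lists and the comparisons were chosen with earlier results of these data known. Named were all 9 members, up to 2 genes a list with the smallest adjusted p among called genes of at least 10 CPM, and CDK1, CDK7 and CDK9; 1 gene that a naming rule picked is not reported here. Alternatives were DESeq2 1.42.0 and its size factors, no count filter, mitochondrial scaling, DMSO alone as control, no block, and leaving out each library.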

Additional observations from a re-analysis of the deposited data

Results flagged for a closer look

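The effect of a treatment on a member differed between its 12 h and 3 h libraries by edgeR's quasi-likelihood test in 6 cases, each from 1 library per line and time. For V50 the 12 h minus 3 h difference on the log2 scale was 1.07 for NFKBIA (adjusted p = 0.0489), 1.02 for NFKBIE (adjusted p = 0.0148), 0.69 for RELA (adjusted p = 0.0311) and 1.0 for RELB (adjusted p = 0.0322), all higher at 12 h. For SY200 it was 1.05 for NFKBIE (adjusted p = 0.0415), and for SY200/V50 it was -1.56 for NFKBIE (adjusted p = 0.00147). NFKBIE was thus higher at 12 h than at 3 h under each single agent and lower under the combination. The causes were not tested.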

How the results depend on the processing

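The fits paired libraries by line or by knockout time, and the labels give no replicate numbers for any other pairing. Over 315 member values each, DESeq2's size factors changed the call of 3, DESeq2's Wald test of 11 and no count filter of 18. Leaving out the block for the line changed 42 of 216 calls, and that for the time 0 of 54. DMSO alone as control changed 9 of 252. No value that passed on either side changed its sign under any of these or without 1 library. Scaling to mitochondrially encoded mRNAs lowered nearly all genes and changed the call of 84 of 315 values without a change of sign. It reversed another 21 values, all to negative. For V50 these were NFKBIA (-0.82), NFKB1 (-0.71) and RELB (-0.69) over the mean of the times, NFKB1 at 3 h (-0.79) and 6 h (-0.89), and RELA (-0.58) and RELB (-0.12) at 12 h. For SY200/V50 ICAM1 was at -1.36 over the mean of the times, -1.41 at 6 h and -1.78 at 12 h, and at -0.69 against SY200. In CDK9 KO NFKB1 (-0.78), NFKB2 (-0.72), RELA (-0.58), ICAM1 (-0.79) and TRAF1 (-0.76) reversed, and in CDK7/9 KO NFKBIA (-0.80), NFKB1 (-0.79), NFKB2 (-0.71), RELA (-0.56) and ICAM1 (-0.66).

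Under that scaling the members called over the mean of the times were 9 for SY200/V50, 9 for V50 and 4 for SY200. Of all genes, 82.8%, 73.8% and 27% were called lower in turn, so these counts mostly follow the shift of all genes. At 3, 6 and 12 h they were 7, 9 and 9 for SY200/V50 and 8, 7 and 6 for V50. For 12 h against 3 h they were 6 for SY200/V50, 0 for V50 and 0 for SY200. SY200/V50 against SY200 gave 9 over the mean and 2, 8 and 8 by time, and against V50 1 at 6 h and 8 at 12 h. CDK7/9 KO and CDK9 KO gave 9 each, where 65.9% and 67.6% of all genes were called lower, and CDK1 KO gave 0. For the counts by time, between times and against the single agents, the share of all genes is not given here. Those counts cannot be read as particular to the members.

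Without a block for the line, 2 were called for SY200/V50 (NFKBIA and NFKBIE) and 0 for V50; by time 0, 0 and 1 for SY200/V50 and 0 at each time for V50; for 12 h against 3 h 0 under all treatments. SY200/V50 against V50 gave 1 over the mean and 1 at 12 h, against SY200 2 over the mean, 0 at 6 h and 1 at 12 h, and against the sum 0. DESeq2 called 1 for SY200 at 12 h, 2 for V50 at 12 h, 2 for SY200/V50 between 3 and 12 h, 1 for SY200/V50 against V50 at 6 h, 2 against SY200 at 3 h and 2 in CDK7 KO. No count filter gave 1 for V50 at 6 h, 0 at 12 h, 1 between 3 and 12 h, 0 for SY200 between 3 and 12 h, 2 in CDK7 KO and 1 in CDK9 KO. DMSO alone gave 1 for V50 at 6 h, 1 against the sum and 3 between the lines' controls. The shares of all genes called under these settings, or in the fits without 1 library below, are not given here. These counts therefore describe the members alone. Causes were not tested.

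Leaving out 1 library, the counts ranged from 1 to 2 for V50, and by time from 0 to 1, 1 to 3 and 0 to 2. They ranged from 0 to 3 for SY200/V50 at 3 h, and between 3 and 12 h from 0 to 1 for SY200, 0 to 4 for V50 and 1 to 2 for SY200/V50. Against V50 they were 3 to 6 over the mean and 3 to 5 at 12 h, against SY200 0 to 1, 2 to 4 and 2 to 4 by time, and between the lines' controls 3 to 6. In the knockouts they were 0 to 8 for CDK1 KO, 0 to 4 for CDK7 KO, 0 to 3 for CDK9 KO, 0 to 5 for CDK7/9 KO, and 0 to 1 for CDK7/9 KO against CDK9 KO and against CDK7 KO; the highest were without an empty vector library. The 4 SY200/V50 calls and the V50 call of NFKBIE over the mean of the times held without any 1 library. At single times, NFKBIA under SY200/V50 was lost without either library of that time at 3 h (-1.17 and -1.79) and 12 h (-1.24 and -1.20) and without MDA-MD-231 at 6 h (-1.11), and NFKBIE at 3 h without MDA-MD-231 (-1.43). Where this left an arm with 1 library, it was assumed to vary like the others. Of the knockout counts, 1 library per time limits what could be detected.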
